A study of Mus musculus with 4 samples.

Results

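The genes described here make up the machinery that copies DNA and supplies its building blocks, together with regulators of entry into S phase. The group holds 47 genes, chosen by name for these known roles, with earlier results of these data known. All 47 were found among the 12417 genes with a usable value in at least 1 of the 4 libraries. In eukaryotic cells the origin recognition complex, with Cdc6 and Cdt1, loads the Mcm2 to Mcm7 helicase onto origins in G1, a step called licensing that geminin blocks later in the cycle. In S phase Cdc45 and the GINS complex turn the loaded ring into an active helicase, the polymerases copy both strands on the Pcna clamp, and ribonucleotide reductase and thymidylate synthase make deoxynucleotides. Many of these genes are targets of the E2F transcription factors at the G1/S boundary, so their mRNA is widely used as a mark of cells that enter or pass through S phase. An mRNA level is not a count of cells in S phase, and in pooled samples fewer expressing cells and less RNA per cell cannot be told apart.

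RNA was sequenced from bone marrow cells of C57BL/6 mice in 4 groups. GRK6 is a kinase of the G protein-coupled receptor kinase family, and GRK6-/- mice carry a deletion of exons 3 to 9 in all their cells. The HSC gate was Lin-c-kit+sca-1+, which also takes in multipotent progenitors, and the CLP gate added Il-7Ra+ to these markers. Both were sorted from WT and from GRK6-/- mice, which by the study's methods were as a rule 8 to 12 weeks old. Each group is 1 library, pooled from the cDNA of 13 to 15 picked cells taken from 3 to 4 mice, so no spread between mice or libraries can be estimated, no test was run, and every difference below compares single libraries. Levels are FPKM, fragments scaled to transcript length and to the number of mapped fragments. The scaling is meant to let levels of different genes be compared, but 3′ bias and PCR can distort it.

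Steps in the lowest FPKM values gave an estimated 2790000 to 4360000 fragments per library. The methods of the study state a larger read number, so the estimate may be too low and fragment numbers given below are approximate. They cover counting error only, since each cell's cDNA went through 20 and then 10 cycles of PCR. Grk6 itself had 42.7 FPKM in WT HSC against 89.4 in GRK6-/- HSC, and 26.9 in WT CLP against 57.6 in GRK6-/- CLP. It was higher in both libraries labelled GRK6-/-, which goes against the labels as read from a whole-gene value, and since 1 value per gene does not separate exons 3 to 9 from the rest, it does not check the deletion. GRK6-/- and WT below mean the libraries so labelled, and every genotype direction rests on those labels. Il7r, which encodes the receptor chain that defines the CLP gate, had 120 FPKM in WT CLP against 75.2 in GRK6-/- CLP, and no row in WT HSC and 1.08 in GRK6-/- HSC. Kit, the other receptor of the sort, was between 26.2 and 81.8 FPKM in all 4 libraries, and Ly6a (sca-1) had no row of its own.

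Markers of other cell types differed between the libraries. The 7 erythroid markers with a value summed to 65.3 FPKM in WT CLP against 17594 in GRK6-/- CLP, and 45.4 in WT HSC against 768 in GRK6-/- HSC. Hba-a2, an alpha globin gene, gave most of the sum in GRK6-/- CLP. Alas2, the first enzyme of heme synthesis in erythroid cells, had no row in WT CLP. Myeloid markers summed to between 7855 FPKM in GRK6-/- CLP and 17848 in WT HSC, led by Elane, with Ltf, Ngp, Camp or S100a9 without a row in some libraries. The lymphoid list summed to 168 FPKM in WT HSC against 118 in GRK6-/- HSC, and 1369 in WT CLP against 1573 in GRK6-/- CLP. The near-equal CLP sums hide opposite directions. Igll1, Vpreb1 and Cd79a, parts of the B cell receptor and its precursor, had 2.20, 16.4 and 32.1 FPKM in WT CLP against 227, 246.0 and 160 in GRK6-/- CLP, and Ebf1, a B-lineage factor, had 24.99 against 82.1. Rag1 and Dntt, which act in antigen receptor rearrangement, had 23.0 and 931 FPKM in WT CLP against 2.47 and 562 in GRK6-/- CLP, and Rag2 had 94.5 against no row. The stem and LSK list ranged from 338 to 493 FPKM, and the T and NK list, mostly Nkg7, from 249 to 615 with Cd3e and Cd3d at 0 in both CLP libraries. The megakaryocyte list summed to 13.5 FPKM in WT CLP against 117 in GRK6-/- CLP, and 149 in WT HSC against 10.9 in GRK6-/- HSC. The part of these other cell types in the differences of the replication genes was not tested.

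Replication genes were well expressed in all 4 libraries. Their median level was 29.6 FPKM in WT CLP against 52.6 in GRK6-/- CLP, and 42.9 in WT HSC against 38.1 in GRK6-/- HSC. These medians lay at percentile 78.1 or above among the genes of their library, and at 86.8 in GRK6-/- CLP. The 47 genes together took 0.528% of all FPKM in WT HSC against 0.391% in GRK6-/- HSC, and 0.347% in WT CLP against 0.666% in GRK6-/- CLP. Of the 4 libraries, WT CLP thus had the lowest share and GRK6-/- CLP the highest, with the HSC libraries between them. GRK6-/- CLP held the highest value for 22 of the 47 genes (46.8%), against a background of 27.0% over all genes. WT CLP held the lowest value for 23 of the 47 (48.9%), against 22.7% over all genes.

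**Figure D1:**
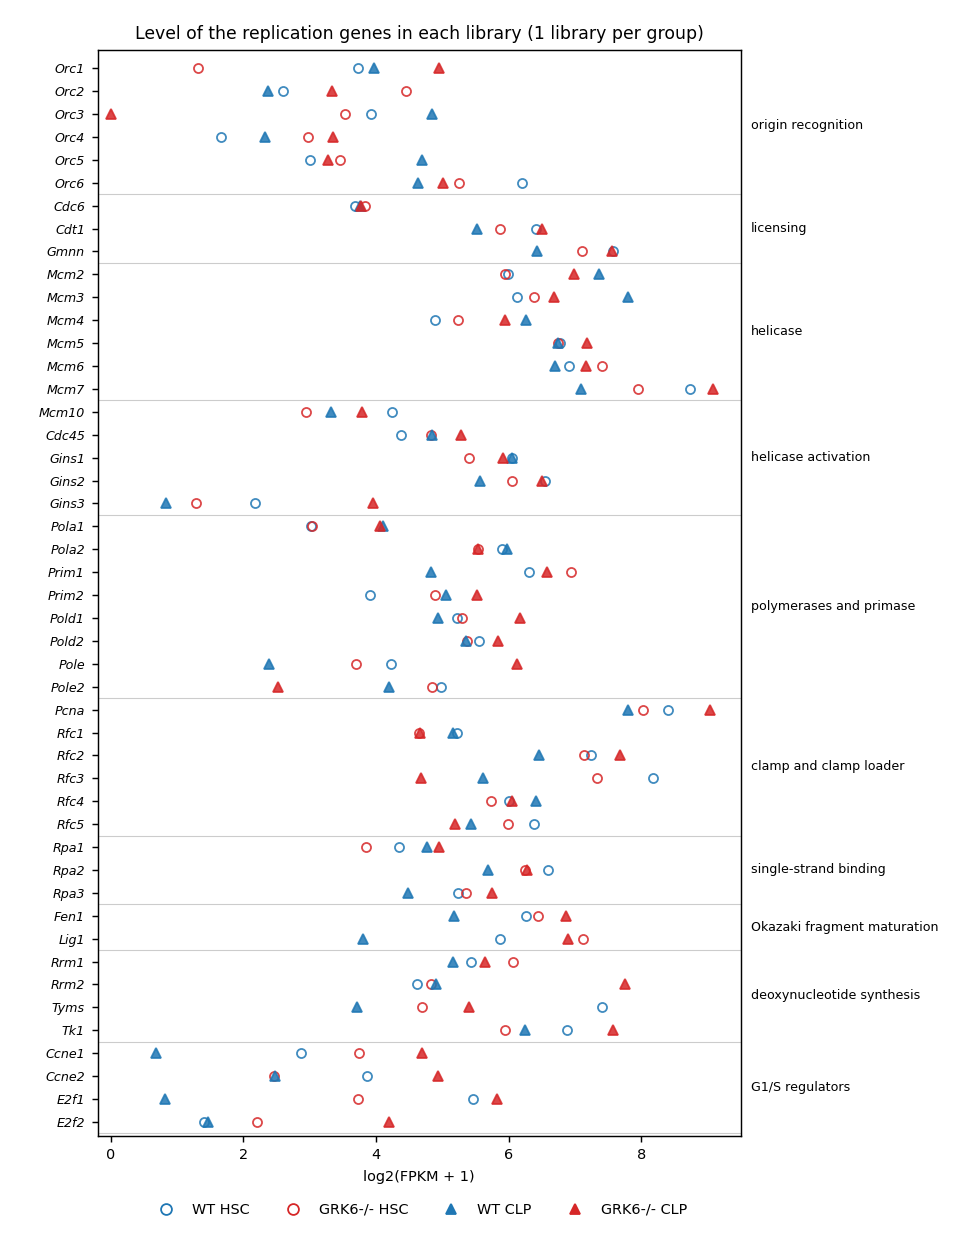
Level of each of the 47 replication genes, as log2(FPKM + 1) on the horizontal axis, in the 4 libraries (circles HSC, triangles CLP, blue WT, red GRK6-/-), grouped by role. Each point is 1 library and there are no error bars. Orc3 sits at 0 in GRK6-/- CLP because it has no row there, and E2f1 spans from 0.757 FPKM in WT CLP to 55.8 in GRK6-/- CLP.

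The first question was whether loss of GRK6 went with another level of these genes in CLP. In GRK6-/- CLP against WT CLP, 19 of the 47 genes were at least 2-fold higher on the scale of FPKM + 1 and 4 were at least 2-fold lower. Over all 11191 genes with a row in either library, 26.6% were higher and 23.4% lower by the same rule, against 40.4% and 8.51% of the replication genes. Their median log2 difference was 0.59, beside 0.05 over all genes. Of the 47 genes 34 lay above 0, beside 5767 of all 11191 genes. The higher genes came from each of the 10 roles, with the G1/S regulators, deoxynucleotide synthesis and Okazaki fragment maturation having the highest medians. GRK6-/- CLP was also above WT CLP in the erythroid sum (17594 against 65.3 FPKM) and the megakaryocyte sum (117 against 13.5). Of the lymphoid list, the 4 B-lineage genes above and Flt3 (219 against 124) were higher in GRK6-/- CLP. Il7r, Rag1, Rag2 and Dntt of the same list were lower there. The part of these markers in the result was not tested.

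The 4 G1/S regulators were all higher in GRK6-/- CLP, with a median log2 difference of 3.37. E2f1, a transcription factor that switches on replication genes, lies on chromosome 2 from 154385375 to 154395588 (mm9, minus strand). It had 42.9 FPKM in WT HSC against 12.2 in GRK6-/- HSC, and 0.757 in WT CLP against 55.8 in GRK6-/- CLP. WT CLP stood far below the other 3 libraries, and the ratio of 73.7 between the CLP libraries rests on about 9 fragments in WT CLP. Ccne1, a cyclin E gene whose product drives Cdk2 at S phase entry, had 0.608 FPKM in WT CLP against 24.9 in GRK6-/- CLP, and 6.29 in WT HSC against 12.4 in GRK6-/- HSC. Its value in WT CLP comes from about 5 fragments, so the ratio of 41.0 between the CLP libraries is loosely determined. Ccne2, the other cyclin E gene, had 13.6 FPKM in WT HSC against 4.53 in GRK6-/- HSC, and 4.56 in WT CLP against 29.4 in GRK6-/- CLP, and its locus overlaps a row of Ints8. E2f2, a second activating E2F, had 17.3 FPKM in GRK6-/- CLP and between 1.66 and 3.63 in the other libraries.

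All 4 genes of deoxynucleotide synthesis had a log2 difference above 0 in CLP and 3 passed the 2-fold rule. Tk1, thymidine kinase of the salvage pathway, had the highest mean level of them, with 75.1 FPKM in WT CLP against 188 in GRK6-/- CLP, and 117 in WT HSC against 60.4 in GRK6-/- HSC. Rrm2, the small subunit of ribonucleotide reductase that is made in S phase (chromosome 12, 25392116 to 25399011, mm9, plus strand), had 23.7 FPKM in WT HSC against 27.3 in GRK6-/- HSC, and 29.0 in WT CLP against 216 in GRK6-/- CLP. Only GRK6-/- CLP stood apart for Rrm2, 7.42-fold above WT CLP. Its partner Rrm1, the large subunit, did not pass the rule, with 34.7 FPKM in WT CLP and 48.8 in GRK6-/- CLP. Tyms, thymidylate synthase, which makes dTMP from dUMP (chromosome 5, 30384740 to 30400165, mm9, minus strand), had 12.1 FPKM in WT CLP against 41.4 in GRK6-/- CLP, and 168 in WT HSC against 24.9 in GRK6-/- HSC. Here the outlying library was WT HSC, and the 3.42-fold difference between the CLP libraries was among low values for this gene.

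Both genes of Okazaki fragment maturation were higher in GRK6-/- CLP. Lig1, the ligase that seals nicks between fragments (chromosome 7, 13862662 to 13896777, mm9, plus strand), had 57.5 FPKM in WT HSC against 138 in GRK6-/- HSC, and 12.9 in WT CLP against 118 in GRK6-/- CLP. Both GRK6-/- libraries were above both WT libraries, by a ratio of 2.39 in HSC and 9.11 in CLP. This order was not particular to Lig1, and was shared by Fen1, Prim1, Rrm1, Mcm6 and Orc2 among others. The reverse order also occurred, as for Pola2 and Rfc1. Fen1, the flap endonuclease that trims the fragments' 5′ ends, had 35.1 FPKM in WT CLP and 116 in GRK6-/- CLP, and 75.2 and 86.0 in the WT and GRK6-/- HSC libraries.

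The polymerases and primase were split. Pole, the catalytic subunit of the leading strand polymerase (chromosome 5, 110715338 to 110766473, mm9, plus strand), had 4.25 FPKM in WT CLP against 69.0 in GRK6-/- CLP, and 17.8 in WT HSC against 12.03 in GRK6-/- HSC, a 16.2-fold difference between the CLP libraries. Pole2, a further subunit of the same polymerase, differed in the other direction, with 30.7 FPKM in WT HSC against 27.6 in GRK6-/- HSC, and 17.4 in WT CLP against 4.72 in GRK6-/- CLP. Thus the 2 subunits had opposite order in the CLP libraries, though Pole2 rests on about 22 fragments in GRK6-/- CLP. Prim1, the catalytic primase subunit, had 27.3 FPKM in WT CLP against 94.0 in GRK6-/- CLP, and 78.3 in WT HSC against 121 in GRK6-/- HSC, and was the most highly expressed of this role by mean level. Pold1, the catalytic subunit of polymerase delta, had 29.6 FPKM in WT CLP and 70.9 in GRK6-/- CLP. Pola1, Pola2, Prim2 and Pold2 did not pass the 2-fold rule.

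Within the helicase, only Mcm7 passed the 2-fold rule as higher in GRK6-/- CLP. Mcm7 (chromosome 5, 138605811 to 138613090, mm9, minus strand) had the highest mean level of the 6 subunits, with 423 FPKM in WT HSC against 245 in GRK6-/- HSC, and 135 in WT CLP against 537 in GRK6-/- CLP. Mcm3, which sits in the same ring, had the reverse order in CLP, with 221 FPKM in WT CLP against 101 in GRK6-/- CLP, and 68.9 in WT HSC against 82.3 in GRK6-/- HSC. The other 4 subunits had log2 differences between -1 and 1, and the median over the 6 was 0.06. Of the factors that activate the helicase, Gins3 differed most, at 0.774 FPKM in WT CLP (about 8 fragments) against 14.5 in GRK6-/- CLP, and 3.53 in WT HSC against 1.44 in GRK6-/- HSC. Gins2, the most highly expressed of them by mean level and overlapped by a row of Gse1, had 92.8 FPKM in WT HSC against 65.1 in GRK6-/- HSC, and 46.5 in WT CLP against 89.3 in GRK6-/- CLP.

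Of the licensing factors 1 of 3 was higher, and of the origin recognition complex 1 of 6 was higher and 2 were lower. The 6 origin recognition genes had a median log2 difference of 0.67 between the CLP libraries, with 4 above 0. Of these Orc1 (0.98) and Orc2 (0.95) came just short of the rule. Gmnn, which encodes geminin, the inhibitor of Cdt1, had 85.3 FPKM in WT CLP against 186 in GRK6-/- CLP, and 189 in WT HSC against 136 in GRK6-/- HSC. Cdt1, with 44.8 FPKM in WT CLP and 89.5 in GRK6-/- CLP, had a log2 difference of 0.98 and came just short of the rule, and Cdc6 stayed between 11.9 and 13.2 FPKM in all 4 libraries. Orc4 was higher in GRK6-/- CLP and in GRK6-/- HSC, at 2.17 FPKM in WT HSC against 6.88 in GRK6-/- HSC, and 3.99 in WT CLP against 9.17 in GRK6-/- CLP. Its log2 difference in CLP, 1.03, went to 0.98 after a shift of all genes to a median of 0 and to 0.45 with a pseudocount of 10 FPKM, which also took the HSC value from 1.31 to 0.47, so its calls depend on these settings. Orc3 (chromosome 4, 34514030 to 34562191, mm9, minus strand) had 27.8 FPKM in WT CLP and no row in GRK6-/- CLP, beside 14.2 in WT HSC and 10.5 in GRK6-/- HSC. It is therefore counted as lower there with a value of 0, and no fold is given. Orc5 was lower as well, at 24.8 FPKM in WT CLP and 8.69 in GRK6-/- CLP. Orc3, Orc4 and Orc5 are overlapped by rows of Akirin2, Acvr2a and Gm15421, with which reads may be shared. Orc6, the subunit with the highest mean level, had 23.7 FPKM in WT CLP against 31.2 in GRK6-/- CLP, and 72.8 in WT HSC against 37.0 in GRK6-/- HSC.

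Clamp genes were mixed too. Pcna, the sliding clamp, had 337 FPKM in WT HSC against 260 in GRK6-/- HSC, and 222 in WT CLP against 521 in GRK6-/- CLP, and 2 annotated pseudogenes may share its reads. Rfc2, a subunit of the clamp loader, had 86.7 FPKM in WT CLP and 203 in GRK6-/- CLP. The other clamp loader genes had log2 differences below 0, which gave the 6 genes a median of -0.30. Of the RPA complex, which coats single-stranded DNA, Rpa3 had 21.3 FPKM in WT CLP and 52.6 in GRK6-/- CLP. Rpa2, its most abundant gene by mean level, had 50.3 FPKM in WT CLP against 76.2 in GRK6-/- CLP, and 95.5 in WT HSC against 75.0 in GRK6-/- HSC, and did not pass. Rows of other symbols overlap Rpa2 (Atpif1), Rfc4 (Eif4a2) and Rfc5 (Wsb2), and reads may be shared.

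Promoters of some of these genes hold the sequence words bound by E2F factors, shown here because E2f1 and its family were among the genes that differed most in CLP. Of the 47 genes, 39 had an entry in the RefSeq promoter table (GRCm38.p6), and Gmnn, Mcm4, Gins1, Gins2, Prim2, Pole, Rfc2 and Ccne2 had none. The words TTTCCCGC, TTTCGCGC, TTTGCCGC and TTTGGCGC were searched on both strands in windows of 250 bases before to 50 after each start, and CCAAT, the word of the NF-Y factor, likewise. The windows below are the 130 bases before the start, in transcript direction, with the words in capitals in either orientation. Orc1, Orc3, Mcm6, Gins3 and Rfc3 are shown as carriers of an E2F word with differing levels, and Rrm2 and E2f1 as genes that were much higher in GRK6-/- CLP but hold no such word in the shown stretch. Coordinates are of GRCm38.p6, not of the mm9 build of the deposited loci.
Orc1 (chr4:108579324-108579453, plus strand): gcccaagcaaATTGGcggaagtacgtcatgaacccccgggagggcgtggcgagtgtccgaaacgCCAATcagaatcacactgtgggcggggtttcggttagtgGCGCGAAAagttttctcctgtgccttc
Orc3 (chr4:34614943-34615072, minus strand): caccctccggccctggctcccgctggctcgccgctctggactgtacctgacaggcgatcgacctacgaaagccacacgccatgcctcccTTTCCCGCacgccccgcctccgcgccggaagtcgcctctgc
Mcm6 (chr1:128359706-128359835, minus strand): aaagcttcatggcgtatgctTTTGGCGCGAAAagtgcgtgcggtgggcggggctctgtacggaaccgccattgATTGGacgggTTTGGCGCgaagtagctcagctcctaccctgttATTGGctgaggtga
Gins3 (chr8:95633429-95633558, plus strand): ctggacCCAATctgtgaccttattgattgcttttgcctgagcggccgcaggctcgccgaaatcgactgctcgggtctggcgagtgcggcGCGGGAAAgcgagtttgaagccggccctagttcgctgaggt
Rfc3 (chr5:151651209-151651338, minus strand): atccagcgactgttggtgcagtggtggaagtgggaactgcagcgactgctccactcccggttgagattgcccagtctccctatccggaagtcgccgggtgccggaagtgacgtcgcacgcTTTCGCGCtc
Rrm2 (chr12:24708124-24708253, plus strand): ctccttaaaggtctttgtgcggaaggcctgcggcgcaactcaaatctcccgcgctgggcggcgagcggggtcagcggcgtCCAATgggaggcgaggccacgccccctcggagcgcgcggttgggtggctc
E2f1 (chr2:154569427-154569556, minus strand): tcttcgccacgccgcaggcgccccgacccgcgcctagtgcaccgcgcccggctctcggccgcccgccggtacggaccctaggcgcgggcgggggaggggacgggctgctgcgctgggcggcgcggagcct
In Mcm6 the first run of capitals is a pair of overlapping E2F words. An E2F word was found in 15 of 48 windows (31.3%), which belong to 15 genes, against 744 of 32851 windows (2.27%) over all promoters and 439 of 11233 (3.91%) over promoters of genes with a row. CCAAT was found in 27 of 48 windows (56.3%), against 37.4% over all promoters. Of the 15 genes with an E2F word, 5 were higher and 3 lower in GRK6-/- CLP against WT CLP, with a median log2 difference of 0.46. Of the 24 with an entry and no such word, 10 were higher and 1 lower, with a median of 0.54. Over all genes 26.6% were higher and 23.4% lower. Of the 8 genes without an entry 4 were higher and 0 lower, with a median of 1.02. Among the 39 genes with an entry, the words did not go with a larger median difference. Since the other 8 had the largest median and could not be classed, no conclusion is drawn for all 47. A match to letters is a description and not a binding site.

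In HSC the same question gave a smaller set of differences. In GRK6-/- HSC against WT HSC 3 of the 47 genes were higher and 5 lower, against 19.3% higher and 18.0% lower over all 11624 genes. The replication genes past the rule were 6.38% and 10.6%, below the background in both directions. The median log2 difference was -0.19, beside 0.05 over all genes. Tyms, Orc1, E2f1, Ccne2 and Mcm10 were lower. Tyms was 6.74-fold lower in GRK6-/- HSC. Orc1, the largest subunit of the origin recognition complex (chromosome 4, 108252059 to 108287439, mm9, plus strand), had 12.3 FPKM in WT HSC against 1.48 in GRK6-/- HSC (about 23 fragments), and 14.7 in WT CLP against 30.0 in GRK6-/- CLP, so that GRK6-/- HSC was the low library. Mcm10, which helps to start the helicase, had 18.0 FPKM in WT HSC and 6.70 in GRK6-/- HSC. The 3 higher genes were Lig1 and Orc4, given above, and Orc2, with 5.05 FPKM in WT HSC against 20.8 in GRK6-/- HSC, and 4.19 in WT CLP against 9.05 in GRK6-/- CLP. All 6 clamp and clamp loader genes had log2 differences below 0, between -0.84 and -0.12, none past the rule.

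The genotype comparisons in HSC and CLP share no library and can be set side by side. Lig1 and Orc4 were higher in GRK6-/- cells of both populations, and no gene was lower in both. Tyms, Ccne2 and E2f1 were lower in GRK6-/- HSC and higher in GRK6-/- CLP. As shares of the 47 genes these are 4.26%, 0% and 6.38%, beside 5.66%, 4.43% and 5.69% of the 10398 genes measured in both comparisons, so the counts lie near or below the background. The sign of the difference was the same for 24 of 47 genes, and for 5203 of 10398 genes overall. Whether the genotype difference itself differed with the population was not tested.

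**Figure D2:**
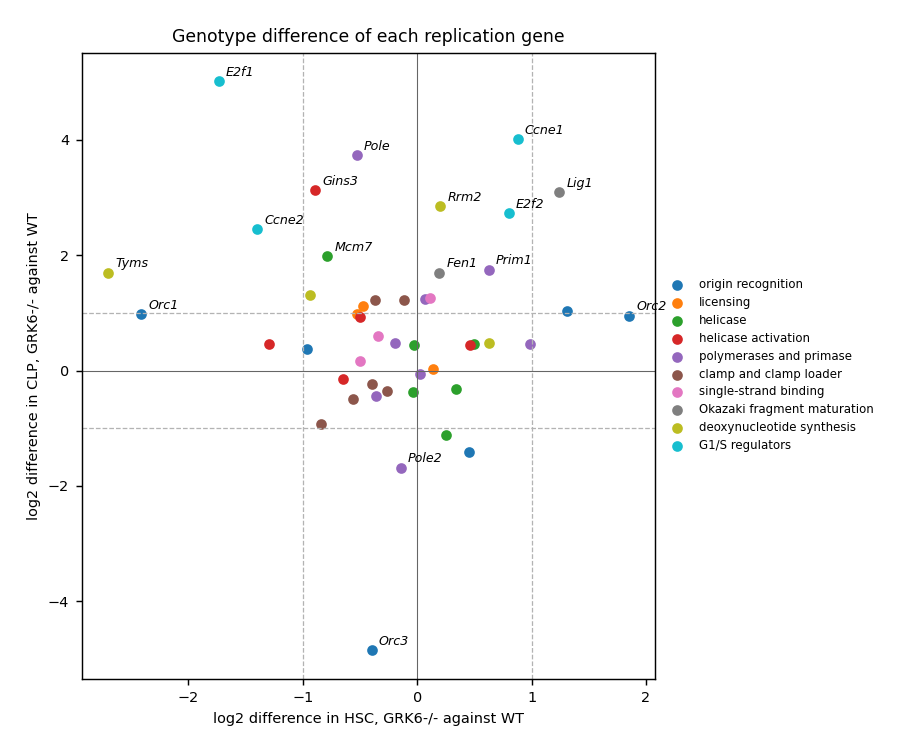
Log2 difference of FPKM + 1 between GRK6-/- and WT for each of the 47 genes, in HSC on the horizontal axis and in CLP on the vertical axis, coloured by role, with dashed lines at the 2-fold rule. Most points lie between the dashed lines for HSC, while 19 lie above the upper line for CLP, led by E2f1 at 5.01 and Ccne1 at 4.01. Orc3 at the bottom has no row in GRK6-/- CLP.

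The next question was how HSC and CLP differ within each genotype. In WT CLP against WT HSC, 6 of the 47 genes were higher and 13 lower, against 21.8% higher and 24.7% lower over all genes. As shares of the replication genes these are 12.8% and 27.7%, and the median log2 difference was -0.29 beside -0.08 over all genes. The lower genes included E2f1, Tyms, Rfc3, Ccne1, Lig1, Pole, Mcm7 and Orc6. The higher genes were Mcm2, Mcm3, Mcm4, Pola1, Prim2 and Orc5, so 3 of the 6 helicase subunits were higher in WT CLP while Mcm7 of the same ring was lower. Mcm2 had 163 FPKM in WT CLP against 126 in GRK6-/- CLP, and 62.3 in WT HSC against 60.8 in GRK6-/- HSC, and Mcm4 had 28.7 FPKM in WT HSC and 75.9 in WT CLP.

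In GRK6-/- CLP against GRK6-/- HSC, 12 genes were higher and 4 lower, against 22.3% higher and 23.4% lower over all genes. As shares of the replication genes these are 25.5% and 8.51%, with a median log2 difference of 0.45 beside -0.08 over all genes. Orc1 gave the largest positive difference, 3.64, followed by Rrm2 at 2.94 and Gins3 at 2.67. In GRK6-/- HSC Orc1 rests on about 23 fragments and Gins3 on about 13. The lower genes were Orc3, Rfc3, Pole2 and Orc2.

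The population comparisons in WT and in GRK6-/- also share no library, but they reuse the libraries of the genotype comparisons. Mcm2 and Pola1, the catalytic subunit of polymerase alpha, were higher in CLP in both genotypes, Pola1 at 7.06 FPKM in WT HSC against 7.21 in GRK6-/- HSC, and 16.3 in WT CLP against 15.7 in GRK6-/- CLP. Rfc3, a clamp loader subunit (chromosome 5, 152445391 to 152470650, mm9, minus strand), was lower in CLP in both, at 47.9 FPKM in WT CLP against 24.6 in GRK6-/- CLP, and 288 in WT HSC against 160 in GRK6-/- HSC. For these 3 genes both CLP libraries lay on one side of both HSC libraries. That order was not particular to them. Among genes not past the rule in both genotypes, Mcm3, Mcm4 and Prim2 had both CLP values above both HSC values. Orc6 and Rfc5 had both below. Mcm7, Gins3, Pole, Ccne2 and E2f1 were lower in CLP than in HSC among WT and higher among GRK6-/-. Of the 47 genes 4.26% were thus higher in both, 2.13% lower in both and 10.6% lower then higher, beside 5.98%, 6.82% and 5.92% of 10493 genes. The sign was the same for 22 of 47 genes, and for 5418 of 10493 genes overall.

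**Figure D3:**
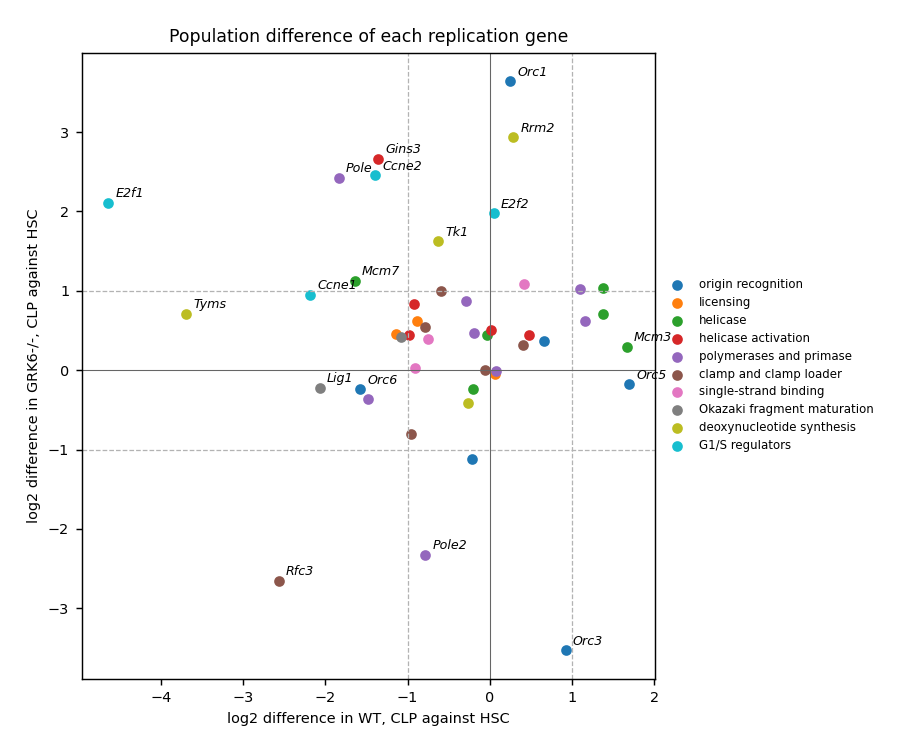
Log2 difference of FPKM + 1 between CLP and HSC for each of the 47 genes, in WT on the horizontal axis and in GRK6-/- on the vertical axis, coloured by role, with dashed lines at the 2-fold rule. E2f1 lies at the far left, at -4.64 in WT, and above the upper line at 2.11 in GRK6-/-, while Rfc3 lies below both lower lines.

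Of the 47 genes, 14 passed the 2-fold rule in none of the 4 comparisons. Cdc6, the loader of the helicase, varied least, by a ratio of 1.11 between its highest and lowest library. Pola2, the accessory subunit of polymerase alpha, ran from 45.2 to 61.5 FPKM, Mcm5 of the helicase from 106 to 144 and Pold2 of polymerase delta from 39.9 to 55.9. Rfc1, the large subunit of the clamp loader, ran from 24.1 to 36.1 FPKM and Gins1 from 41.2 to 65.5. In some complexes a subunit that did not pass the rule thus stood beside one that did, such as Mcm5 beside Mcm7, Pold2 beside Pold1 and Gins1 beside Gins3. Cdc45, which joins the helicase to make it active, ranged from 19.7 FPKM in WT HSC to 37.8 in GRK6-/- CLP.

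Further genes of the pathway were taken as a list of 46, of which 45 had a row and Ticrr had none under that symbol. In GRK6-/- CLP against WT CLP 15 of the 45 were higher and 6 lower (33.3% and 13.3%, beside 26.6% and 23.4% of all genes), with a median log2 difference of 0.48. Clspn, a checkpoint adaptor at the fork, had 16.9 FPKM in WT HSC against 4.16 in GRK6-/- HSC, and 0.180 in WT CLP against 28.4 in GRK6-/- CLP, the same order of libraries as E2f1. E2f7 and E2f8, E2F family members that repress, had 14.5 and 80.5 FPKM in GRK6-/- CLP, against 0.122 and 11.2 in WT CLP. Lower were Pole3, an accessory subunit of the leading strand polymerase, at 53.5 FPKM in WT CLP and 0.809 in GRK6-/- CLP, Dbf4, the activator of the Cdc7 kinase that fires origins, at 14.7 and 0.301, and Pold4 at 131 and 40.8. A single fragment in 2000 bases is worth 0.115 FPKM in WT CLP and 0.179 in GRK6-/- CLP. The values of Clspn and E2f7 in WT CLP and of Dbf4 in GRK6-/- CLP thus rest on few fragments, and their differences are loosely determined. In GRK6-/- HSC against WT HSC 7 were higher and 6 lower (15.6% and 13.3%), below the 19.3% and 18.0% of all genes, with a median of 0.08. Ctps, Pold4 and Umps led the higher genes, at log2 differences of 1.74, 1.32 and 1.24, and Clspn, E2f3 and Wdhd1 the lower ones, at -1.79, -1.72 and -1.45. Between populations 4 were higher and 11 lower in WT CLP, led by Chaf1a at 2.53 and by Clspn at -3.92, and 11 were higher and 8 lower in GRK6-/- CLP, led by E2f8 at 3.14 and by Pole3 at -5.39. In WT these are 8.89% and 24.4%, beside 21.8% and 24.7% of all genes, and in GRK6-/- 24.4% and 17.8%, beside 22.3% and 23.4%.

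Genes of mitosis were compared to see whether the later part of the cycle followed. In GRK6-/- CLP against WT CLP none of 20 mitosis genes was higher and 14 were lower (70.0%, beside 23.4% of all genes lower and 26.6% higher), with a median log2 difference of -1.44. Thus the replication genes and the mitosis genes had medians of opposite sign in the same pair of libraries. Top2a, the topoisomerase that untangles sister chromatids, had 479 FPKM in WT CLP against 36.5 in GRK6-/- CLP, and 166 in WT HSC against 57.1 in GRK6-/- HSC. Ccnb1, the mitotic cyclin B1, had 20.2 FPKM in WT HSC against 58.6 in GRK6-/- HSC, and 43.3 in WT CLP against 3.24 in GRK6-/- CLP. Mki67, the proliferation marker Ki-67, had 22.3 FPKM in WT CLP and 26.2 in GRK6-/- CLP and so differed little. These 3 genes were chosen after their values were seen. GRK6-/- CLP was the lowest library for 15 of the 20 genes, against 23.1% of all genes. In GRK6-/- HSC against WT HSC 4 mitosis genes were higher and 2 lower, in WT CLP against WT HSC 5 and 1, and in GRK6-/- CLP against GRK6-/- HSC 1 and 10. The shares higher in the first and second of these, 20% and 25%, lie near the 19.3% and 21.8% of all genes. The shares lower, 10% and 5%, lie below the 18.0% and 24.7% of all genes. In the last, 5% were higher and 50% lower, beside 22.3% and 23.4%. The median log2 differences of the mitosis genes were 0.45, 0.44 and -1.19 in this order. The E2F words were in 1 of 17 mitosis gene windows (5.88%) and CCAAT in 14 of 17 (82.4%), against 31.3% and 56.3% for the replication genes.

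**Figure D4:**
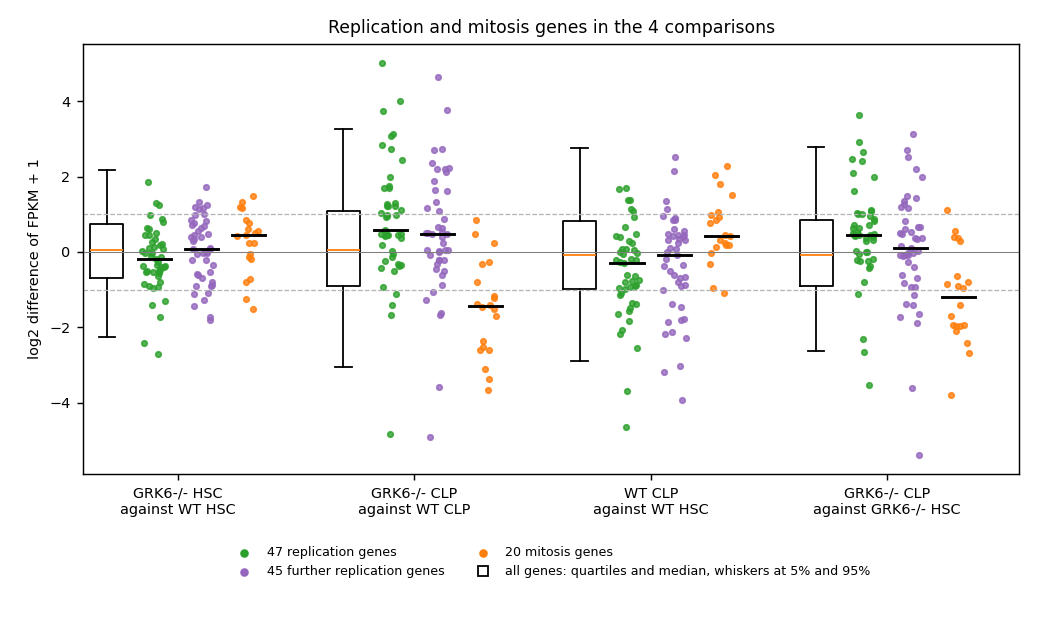
Log2 difference of FPKM + 1 in the 4 comparisons for the 47 replication genes (green), 45 further replication genes (purple) and 20 mitosis genes (orange). Each point is 1 gene and the black bars are list medians, the boxes give the quartiles and median of all genes with whiskers at 5% and 95%, and dashed lines mark the 2-fold rule. In GRK6-/- CLP against WT CLP the medians were 0.59, 0.48 and -1.44.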

How the data were processed

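RNA-seq libraries of 4 groups were analysed, 1 library each. The authors deposited FPKM values, 1 per gene row, without counts, and per the labels cDNA was primed with poly(dT) from single picked cells. Reads had been aligned to mm9 with TopHat 1.4.0 per the submitters' processing notes and quantified with the Tuxedo suite; quantification settings are not given in the sources used here, and 3′ bias and PCR can distort FPKM. Genes named in rows with several genes, 333 of 12750, were left out, and a gene without a row was given 0. Log2 differences used FPKM + 1, which understates differences of low genes, with a threshold of 1. No count model or test was run, because each group has 1 library. There were 0 unused columns of per-sample values. The replication genes and lists were chosen with earlier results of these data known. By plan, all 4 values were given for the most abundant gene of each role and those past the threshold in both populations or both genotypes. Others were to be given by their comparison. Outside this rule, and with their values known, all 4 values are also given for Rrm2, Ccne1, Pole2, Mcm3, Fen1, Orc1, Orc2 and Orc3. Of the further list up to 3 per direction with an FPKM of at least 10 were to be named. Depth was estimated from steps in low values of genes with 1 transcript. The scripts were tested on simulated data. Alternatives were pseudocounts of 0.1 and 10, filters at 1 and 10 FPKM, a shift to median 0, upper-quartile scaling, joint rows and a threshold of 2. Python 3.11.15, numpy 2.4.6, pandas 2.3.3 and matplotlib 3.10.9 were used.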

Additional observations from a re-analysis of the deposited data

Results flagged for a closer look

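Some genes were flagged because the same contrast gave opposite directions past the 2-fold rule in its 2 settings. With 1 library per group these differences were not tested. For GRK6-/- against WT, the log2 difference of Tyms was -2.70 in HSC and 1.69 in CLP, that of Ccne2 -1.40 and 2.45, and that of E2f1 -1.73 and 5.01. For CLP against HSC, the log2 difference of Mcm7 was -1.64 in WT and 1.13 in GRK6-/-, that of Gins3 -1.35 and 2.67, and that of Pole -1.84 and 2.42. In the same order Ccne2 had -1.39 and 2.46, and E2f1 -4.64 and 2.11. Both contrasts use the same libraries, so the double flags of Ccne2 and E2f1 are not separate results. E2f1 and Gins3 rest on about 9 and 8 fragments in WT CLP. Gins3 also rests on about 25 fragments in WT HSC and 13 in GRK6-/- HSC.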

How the results depend on the processing

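The median log2 differences of the replication genes kept their sign in all 4 comparisons under every alternative run. Of the recomputed counts and medians 104 stayed within 1.5-fold or the set limit and 12 moved. With a pseudocount of 0.1 FPKM the genes higher in GRK6-/- HSC against WT HSC went from 3 to 5, with 26.3% of all genes higher. With a pseudocount of 10 FPKM the lower genes went from 5 to 2 in that comparison, with 6.07% of all genes lower. They went from 4 to 2 in GRK6-/- CLP against WT CLP (10.3% of all genes) and from 13 to 8 in WT CLP against WT HSC (9.39%). With a log2 threshold of 2, GRK6-/- HSC against WT HSC gave 0 higher and 2 lower (0% and 4.26%, beside 6.07% and 6.37% of all genes). GRK6-/- CLP against WT CLP gave 8 higher and 1 lower (17.0% and 2.13%, beside 13.5% and 11.3% of all genes). WT CLP against WT HSC gave 0 higher and 5 lower (0% and 10.6%, beside 9.22% and 11.2%). GRK6-/- CLP against GRK6-/- HSC gave 6 higher and 3 lower (12.8% and 6.38%, beside 9.72% and 9.41%). The excess of higher genes in GRK6-/- CLP against WT CLP is thus smaller at this threshold. Leaving out the 8 genes overlapped by rows of another symbol, chosen after seeing the data, left 39 genes. Of these 17 were higher and 2 lower in GRK6-/- CLP against WT CLP, beside 26.6% and 23.4% of all genes. Of 66 single differences past the threshold, 41 did not reach a log2 threshold of 2, 19 did not pass with a pseudocount of 10 FPKM and 2 after a shift to a median of 0, Orc4 in GRK6-/- CLP against WT CLP and Fen1 in WT CLP against WT HSC. No value changed sign. No paired analysis was possible because each group has 1 library and the labels carry no replicate numbers, and for the same reason no replicate could be left out. Depth limits the lowest values, where 1 fragment in a transcript of 2000 bases is worth 0.115 to 0.179 FPKM.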

Other observations

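Nucleotide supply genes outside the main group did not go one way in CLP. Dut, which removes dUTP, had 69.8 FPKM in WT CLP against 305 in GRK6-/- CLP, and 123 in WT HSC against 271 in GRK6-/- HSC. Both GRK6-/- libraries were above both WT libraries, as for Lig1 and several other replication genes. Dck, the deoxycytidine kinase of salvage, had 26.9 FPKM in WT CLP against 69.0 in GRK6-/- CLP, and 9.94 in WT HSC against 14.1 in GRK6-/- HSC, with both CLP libraries above both HSC libraries. Cad, which starts pyrimidine synthesis, was lower in GRK6-/- CLP, at 20.6 FPKM in WT CLP against 9.44, and Umps of the same pathway had 26.5 against 31.4. These 4 genes were chosen after their values were seen, and no test was run.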
